A study of Caenorhabditis elegans with 2 samples.

Results

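Regions listed after immunoprecipitation of the LIM homeodomain protein LIM-6 were described at 9 genes of Caenorhabditis elegans. The genes act in left-right asymmetry of sensory neurons: che-1, ceh-36, lsy-2, lsy-12, die-1, cog-1, unc-37, fozi-1 and nsy-7. They are 9 of the 19973 protein-coding genes of the annotation, and were taken as a set by name, for their known roles, not by their signal. For each gene, every listed region was taken that overlapped a locus window from 5 kb upstream of the gene to 1 kb past its end. The 9 windows held 35 of the 25887 regions in the list made from both libraries pooled, which holds peaks and background. None of the 9 genes had a region that passed the test of reproducibility in genome build ce11, against 6.38% of all protein-coding genes. The closest was a region 322 bp upstream of unc-37, which encodes the Groucho co-repressor.

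The data are ChIP-seq of whole hermaphrodite embryos at a late stage, 5 hours after synchronization by bleaching of eggs, with an antibody to GFP. The strain, OP388, has the genotype unc-119(ed3) III; wgIs388 and stably makes LIM-6 fused at its C-terminus to GFP and FLAG. There were 2 libraries, labelled as biological replicates 1 and 2 of this 1 group, and control libraries were not used here, so no comparison of conditions exists. The ASE neurons are only 2 cells of the embryo. Whole embryos were used, so no region can be assigned to the ASE neurons or to any other cell. A site bound in fewer cells cannot be told apart from one bound less in each cell.

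The ASE neurons are a left-right pair of taste neurons, ASEL and ASER, which start out alike and then express different chemoreceptors. CHE-1, a zinc finger protein, drives the genes that both cells share. On the left, the microRNA lsy-6 and the zinc finger protein DIE-1 lead to LIM-6, which is made in ASEL and not in ASER and represses ASER genes; on the right, COG-1, an Nkx6 homeodomain protein, works with UNC-37 to repress the left program, and FOZI-1 keeps lim-6 off.

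Sequences around 6 of the 35 region summits are given first: the highest region of ceh-36, the highest of die-1 and the one nearest its 5′ end, and the 3 regions that hold TAATTA, at cog-1, nsy-7 and fozi-1, which are weak, with signals of 23.3, 21.6 and 20.9. Each is 201 bases of the RefSeq WBcel235 assembly, the same assembly as ce11, centred on the summit and written 5′ to 3′ on the strand of the gene. Capitals mark GAAGCC, a word found in the binding site of CHE-1, and TAATTA, the core bound by LIM homeodomain proteins. The region of highest signal at ceh-36 and the region nearest the 5′ end of die-1 held neither word. GAAGCC stood 14 bp before the summit in the highest die-1 region. The fozi-1 window held both words.
ceh-36 (chrX:14185658-14185858, - strand): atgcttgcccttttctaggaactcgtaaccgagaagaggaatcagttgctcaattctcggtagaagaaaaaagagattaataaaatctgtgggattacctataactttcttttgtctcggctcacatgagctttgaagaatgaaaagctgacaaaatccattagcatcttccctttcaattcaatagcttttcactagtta
die-1 (chrII:10065681-10065881, - strand): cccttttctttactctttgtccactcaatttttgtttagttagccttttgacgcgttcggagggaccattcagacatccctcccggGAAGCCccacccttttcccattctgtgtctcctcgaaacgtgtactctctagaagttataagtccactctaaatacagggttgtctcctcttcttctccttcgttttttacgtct
die-1 (chrII:10068493-10068693, - strand): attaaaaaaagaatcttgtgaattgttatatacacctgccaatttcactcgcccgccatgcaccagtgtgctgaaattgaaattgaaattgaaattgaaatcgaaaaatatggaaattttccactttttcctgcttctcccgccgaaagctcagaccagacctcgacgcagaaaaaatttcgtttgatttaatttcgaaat
cog-1 (chrII:14900731-14900931, + strand): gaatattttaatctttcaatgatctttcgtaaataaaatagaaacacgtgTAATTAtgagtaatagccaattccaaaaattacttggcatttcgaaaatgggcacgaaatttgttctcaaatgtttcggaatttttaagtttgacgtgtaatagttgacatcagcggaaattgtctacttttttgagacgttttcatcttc
nsy-7 (chrIV:8085311-8085511, - strand): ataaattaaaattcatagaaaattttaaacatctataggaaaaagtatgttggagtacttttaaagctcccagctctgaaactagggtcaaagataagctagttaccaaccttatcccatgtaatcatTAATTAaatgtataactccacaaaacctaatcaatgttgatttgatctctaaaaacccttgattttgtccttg
fozi-1 (chrIII:9295710-9295910, + strand): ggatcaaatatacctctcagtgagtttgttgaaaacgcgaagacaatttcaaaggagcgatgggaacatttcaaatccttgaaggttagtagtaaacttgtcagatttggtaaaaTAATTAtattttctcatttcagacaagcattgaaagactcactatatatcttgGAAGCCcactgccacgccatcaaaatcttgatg

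Both words and 2 others were searched on both strands in all windows of this kind. TAATTA was present in 3 of 35 member windows, 8.57%, against 7.58% of all pooled windows and 8.25% of the reproducible ones. GAAGCC was present in 4 of 35, 11.4%, against 8.75% of all pooled windows, in 2 die-1 windows and 1 each of che-1 and fozi-1. The weaker of the 2 die-1 windows lay 556 bp past the gene, 86 bp from the 5′ end of stg-1. The che-1 window lay 3562 bp upstream, in the promoter window of T10E9.4. The fozi-1 window lay 14030 bp into the gene and overlapped a coding exon. GAAACC, another form of the CHE-1 word, was present in 1 window, 2.86% against 9.09%, which lay past the end of unc-37. GAGAGA was present in 4 windows, at cog-1, die-1, lsy-2 and unc-37, 11.4% against 17.6% of all pooled windows and 34.6% of the reproducible ones. Its lsy-2 and unc-37 windows lay past those genes, with summits in coding exons of the neighbours col-164 and cytb-5.2. With 35 windows, 1 window more or less moves a member share by 2.86 percentage points. GAGAGA can share bases with either CHE-1 word where they adjoin, matches of each word were counted separately, and a match is a description of the letters only. In windows from 250 bases before to 50 after the 5′ end, TAATTA was found at 1 of 9 members, cog-1, against 15.5% of all genes. GAAGCC was found at che-1 and lsy-12, against 6.95% of all genes, and GAAACC at fozi-1 and unc-37, against 13.6%. GAGAGA was found at che-1, fozi-1, nsy-7 and unc-37, 4 of 9 against 21.8% of all genes.

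Each region carries a signal value given by the authors, whose scale is not stated, so it serves to rank regions within a list, with rank 1 the highest. Pooled signals were 20.5 to 1114 with a median of 27.9. Reproducible regions are those that passed the authors' threshold on the irreproducible discovery rate (IDR), a measure of how well the ranks of 2 lists match. They were the 570 pooled regions of highest signal, and the lowest of them had a signal of 80.0. Replicate 1 listed 21953 regions with a median of 16.6 and replicate 2 listed 27731 with a median of 15.9. Over 301 reproducible regions with 1 counterpart in each library, the median ratio of the pooled signal to the sum of the library signals was 1.01. Read depth is unknown.

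No reproducible region overlapped any of the 9 windows, 0 of 9 genes against 6.38% of all protein-coding genes. The 35 member regions had signals of 20.7 to 78.5 with a median of 28.6, beside 27.9 over all pooled regions, and 19 of the 35 were above that median. By the highest region in the window, the order was unc-37 at 78.5, ceh-36 at 43.5, lsy-2 at 43.3, cog-1 at 38.2, die-1 at 35.6, fozi-1 at 31.1, che-1 at 31.0, nsy-7 at 29.5 and lsy-12 at 29.3. The median of these 9 was 35.6, against 35.5 over the 16126 protein-coding genes with a region. Every later step in this order was smaller than that between unc-37 and ceh-36, and the libraries ordered the genes differently, so the order below unc-37 is not resolved by these data. In replicate 1 cog-1 and unc-37 led with 36.02 and 35.8, and in replicate 2 unc-37 led with 45.8, followed by ceh-36 with 30.9 and lsy-2 with 30.1.

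**Figure D1:**
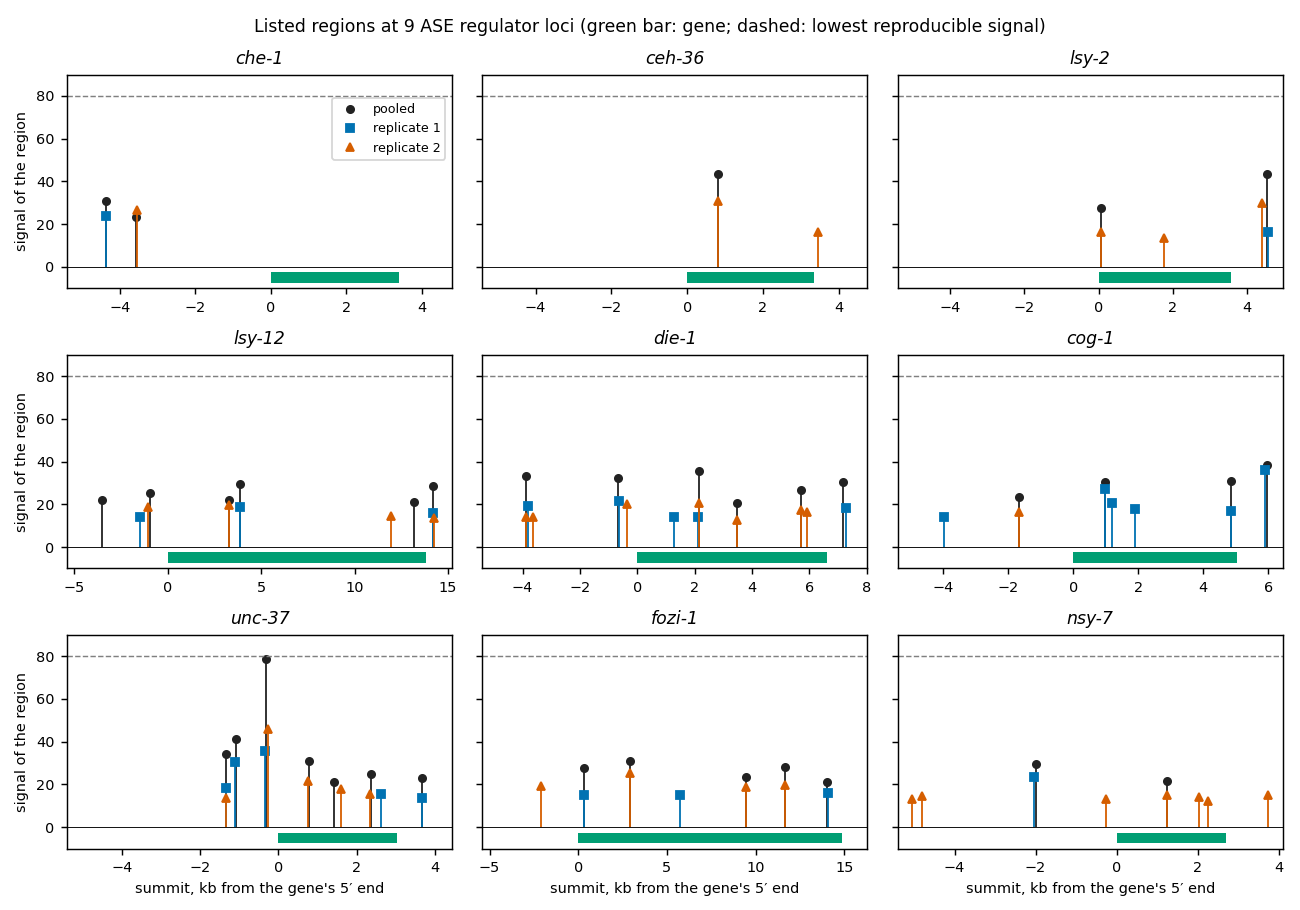
Signal of every listed region (vertical axis, no unit) by the distance of its summit from the 5′ end of the gene (horizontal axis, kb, negative upstream) at the 9 genes, in the pooled list, replicate 1 and replicate 2, with the gene as a green bar and the lowest reproducible signal, 80.0, as a dashed line. The highest pooled point, 78.5 at 322 bp upstream of unc-37, lies just under the line, and all other pooled points lie at or under 43.5.

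The median over the 9 windows was 0.239 pooled regions per kb, against 0.243 over all protein-coding genes, whose quartiles were 0.116 and 0.395. As a whole, the 9 windows held 0.317 regions per kb, against 0.258 for the genome. In each library alone the member median was lower than that of all genes, 0.144 against 0.198 in replicate 1 and 0.214 against 0.260 in replicate 2. A pooled summit lay in the promoter window, 1000 bp before to 500 bp after any transcript 5′ end of the gene, in 6 of 9 members, against 41.0% of all genes. Those 6 were unc-37, die-1, cog-1, lsy-2, fozi-1 and lsy-12, which had 9 such summits together, and che-1, ceh-36 and nsy-7 had none. Only the unc-37 summit and the die-1 summit 676 bp upstream belonged to regions that overlapped a region of each library. The lsy-12 gene, with 10 transcript 5′ ends, had 3 of the 9 summits. One of the 5000 highest pooled regions was present at 3 of 9 members, unc-37, ceh-36 and lsy-2, against 34.0% of all genes. Of the 35 summits, 16 lay in introns, 9 in intergenic sequence, 8 in coding exons and 1 each in a 5′ UTR and a 3′ UTR.

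A smaller share of the member regions than of all pooled regions was found in both libraries. Overlap by at least 1 bp with a region of each library was found for 9 of 35, 25.7% (95% Clopper-Pearson interval 12.5% to 43.3%, for counting error over regions only), against 46.5% of all pooled regions. A further 10 overlapped a region of replicate 1 alone, 14 a region of replicate 2 alone and 2, both at lsy-12, overlapped neither. Over all pooled regions those shares were 19.2%, 28.6% and 5.73%. In the windows of other genes of the ASE pathway, 21 of 31 regions, 67.7%, were found in both libraries at 8 further regulators and 8 of 32 at 14 target and terminal genes. The 32 count a single region for both gcy-4 and gcy-5, whose windows share it. Of the 21, 9 were at lsy-22, 7 at lim-6 and 4 at lsy-13, so that share rests on few genes. The 9 member regions were at unc-37 (4), die-1 (3), lsy-2 (1) and lsy-12 (1). Regions are not replicates, and 2 of the unc-37 regions overlapped the same library regions.

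**Figure D2:**
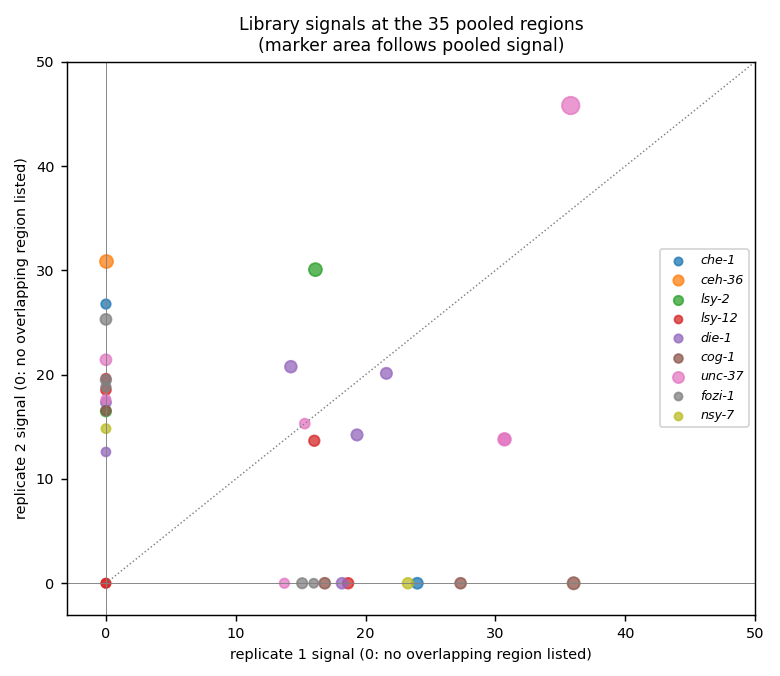
Signal of the overlapping region in replicate 1 (horizontal axis) and replicate 2 (vertical axis) for the 35 pooled regions, coloured by gene, with marker area following pooled signal and 0 where the library lists no overlapping region. The unc-37 promoter region stands apart at 35.8 and 45.8, and 24 of the regions lie on one axis because the other library did not list them.

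The first 2 members set the identity of the neurons. CHE-1 is the terminal selector of both ASE neurons, the factor that switches on their shared genes. The che-1 gene (WBGene00000483, chromosome I, 6517529 to 6520918, minus strand) had 2 pooled regions, both far upstream. The one at 6525084 to 6525507 had a pooled signal of 31.0, rank 9674, with its summit 4378 bp upstream in an intron of the neighbour T10E9.4, and was listed in replicate 1 at 24.0 and not in replicate 2. The other, at 6524268 to 6524691, had a pooled signal of 23.1, rank 20349, 3562 bp upstream, and was listed in replicate 2 at 26.8 and not in replicate 1. Each library thus listed 1 region near che-1, and they were different regions. Both summits lay in the promoter window of T10E9.4, 251 bp and 565 bp from its nearest 5′ end, and neither in that of che-1.

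CEH-36 is an Otx-type homeodomain protein that acts in the ASE and AWC neurons. The ceh-36 gene (WBGene00000457, chromosome X, 14183221 to 14186566, minus strand) had 1 pooled region, at 14185546 to 14185969, in an intron 808 bp downstream of the 5′ end. Its pooled signal was 43.5, rank 3245, the highest of any member after unc-37. Replicate 2 listed it at 30.9, rank 1631, and replicate 1 listed no region anywhere in the window. Among the 10189 genes with a window of similar length, within 20%, 76.1% had a lower highest signal. Here and in later shares of this kind, a gene with no pooled region counts as lower.

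A pair of members act ahead of the left-right decision or maintain it. LSY-2 is a zinc finger protein needed for lsy-6 expression. At lsy-2 (WBGene00003087, chromosome X, 2089704 to 2093256, plus strand) the highest of 2 pooled regions, 2094023 to 2094446, had a signal of 43.3, rank 3299, and was listed in both libraries, at 16.1 in replicate 1 and 30.1 in replicate 2. Its summit lay 979 bp past the end of lsy-2, in a coding exon of col-164, a cuticle collagen gene. The region nearest the 5′ end, 2089549 to 2089972, had its summit 57 bp downstream of it in the 5′ UTR, with a signal of 27.7, rank 13274, and 16.5 in replicate 2 alone. The stronger lsy-2 region was thus the one in the neighbouring gene. The lsy-2 gene lies 1.01 Mb from lim-6 itself, and ceh-36, on the same chromosome, 13.1 Mb.

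LSY-12 is a MYST histone acetyltransferase that keeps the asymmetric state. The lsy-12 gene (WBGene00045419, chromosome V, 9846157 to 9859963, minus strand) has 10 annotated transcript 5′ ends and had 6 pooled regions, with signals of 21.2 to 29.3. The highest, 9855890 to 9856313, rank 11295, lay in an intron 228 bp downstream of a transcript 5′ end and was listed in replicate 1 at 18.7 and not in replicate 2. The region nearest the outermost 5′ end, 9860705 to 9861128, lay 954 bp upstream with a signal of 25.3 and was listed in replicate 2 alone, at 18.5. The single region found in both libraries, with a pooled signal of 28.6 and 16.0 and 13.7 in replicates 1 and 2, lay 395 bp past the gene in an intron of sru-8. Of 763 genes with similar windows, 14.5% had a lower highest signal, the lowest such share of the 9 genes.

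The members of the bistable loop between lsy-6 and cog-1 follow. DIE-1 is the zinc finger protein that specifies ASEL. The die-1 gene (WBGene00000995, chromosome II, 10061302 to 10067917, minus strand) had 6 pooled regions of 20.7 to 35.6, and 3 of them were found in both libraries. The highest, 10065569 to 10065992, rank 6422, lay in an intron, with 14.2 in replicate 1 and 20.8 in replicate 2, within 250 bp of the snoRNA gene C18D1.21. The region nearest the outermost 5′ end, 10068381 to 10068804, lay 676 bp upstream with a pooled signal of 32.3, rank 8561, and 21.6 and 20.1 in replicates 1 and 2. The summit of replicate 2 there was 352 bp upstream, and that of replicate 1 was 645 bp upstream. The weakest region, 20.7, lay 48 bp downstream of an internal transcript 5′ end and was listed in replicate 2 alone, at 12.6. Among the 9, die-1 and unc-37 were the members with more than 1 region found in both libraries. Those 3 die-1 regions lay above 66.9% to 75.2% of the pooled list. By highest signal, die-1 stood above 45.2% of the genes with similar windows.

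COG-1 is the Nkx6 homeodomain protein of ASER and the target of lsy-6. The cog-1 gene (WBGene00000584, chromosome II, 14902493 to 14907533, plus strand) had 4 pooled regions, none found in both libraries. The highest, 14908245 to 14908668, had a pooled signal of 38.2, rank 5080, 924 bp past the gene in a coding exon of R03C1.1, and was listed in replicate 1 at 36.02, rank 800, and not in replicate 2. The region 342 bp downstream of a transcript 5′ end, 14903260 to 14903683, had 30.3 in the pooled list and 27.3 in replicate 1, and was not listed in replicate 2. A region 1662 bp upstream, 14900619 to 14901042, had 23.3 in the pooled list and was listed in replicate 2 alone, at 16.6. Replicate 1 listed 6 regions in the cog-1 window and replicate 2 listed 1.

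UNC-37 is the Groucho co-repressor, which acts with COG-1 and with many other factors in the animal. The unc-37 gene (WBGene00006773, chromosome I, 6742299 to 6745329, minus strand) had 7 pooled regions, 0.775 per kb, more than 97.7% of all genes. The highest, 6745439 to 6745862, lay in intergenic sequence 322 bp upstream with a pooled signal of 78.5 and a −log10 q of 2.62. It ranked 602 of 25887, which is 32 places below the last reproducible region, and its signals were 35.8 in replicate 1, rank 815, and 45.8 in replicate 2, rank 494. The next −log10 q among the 35 regions was 0.649, at ceh-36, and the lowest was 0.0195, at die-1. By the pooled q-value, the regions from 0.649 down cannot be told apart from background. In 1 library alone, some of these sites had a higher −log10 q. Replicate 1 gave 2.16 at the highest cog-1 region and 1.39 at the unc-37 region next in signal. Replicate 2 gave 1.38 at ceh-36 and 1.27 at the highest lsy-2 region. At these 4 sites the other library had at most 0.112 or listed no region. The second region, 6746204 to 6746627, lay 1087 bp upstream in an intron of fnci-1 with 41.3 in the pooled list, rank 3863, and the other 5 had 21.1 to 34.2. Among 11516 genes with similar windows, 93.9% had a lower highest signal and 5.92% had a reproducible region.

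The reproducible lists of the 2 builds have different limits of signal, and the unc-37 promoter region lies between them. The ce10 list held 858 reproducible regions down to a signal of 68.9, and the ce11 list held 570 down to 80.0, with the ce11 unc-37 region at 78.5. On chromosome I, the ce10 pooled list had 6 regions within 0.6% of the unc-37 signal, the nearest at 78.4793. All 6 were reproducible in ce10, and of 6 such regions in ce11, 0 were. These counts only restate the limits, since a signal near 78.5 is above 68.9 and below 80.0. They add no evidence on the unc-37 site. Coordinates were not converted between builds, so the ce10 status of the unc-37 site itself was not determined.

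**Figure D3:**
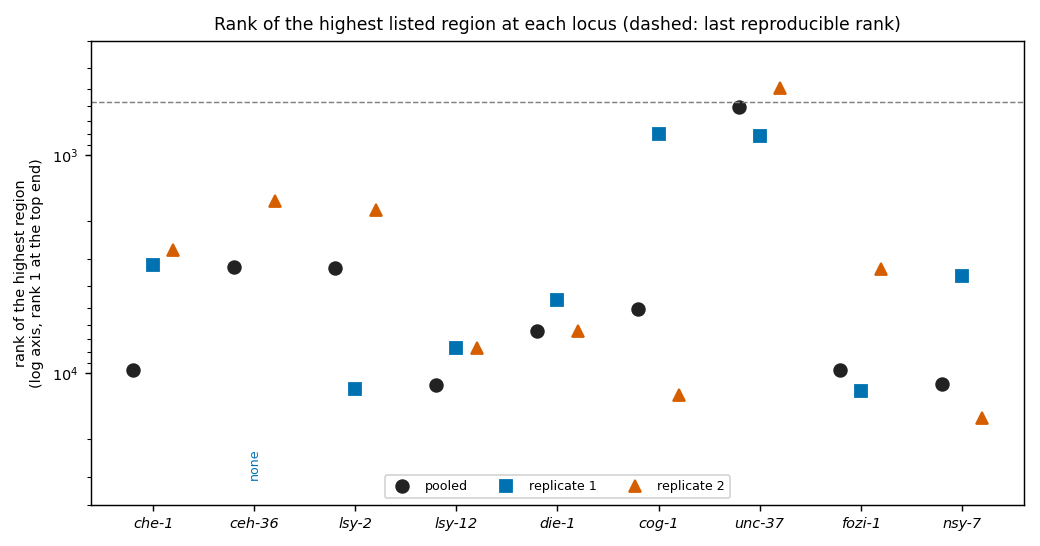
Rank of the highest region at each gene in the pooled list, replicate 1 and replicate 2 (vertical axis, log scale, rank 1 at the top end), with the last reproducible pooled rank, 570, as a dashed line. Only the replicate 2 point of unc-37, rank 494, lies above the line. For cog-1 the rank is 800 in replicate 1 and 12510 in replicate 2, and ceh-36 has rank 1631 in replicate 2 and no region in replicate 1.

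FOZI-1 is a protein with zinc fingers and a formin homology domain that represses lim-6 in ASER. The fozi-1 gene (WBGene00010453, chromosome III, 9281780 to 9296675, plus strand) had 5 pooled regions of 20.9 to 31.1, all with the summit in an intron and none found in both libraries. The highest, 9284474 to 9284897, rank 9627, lay 2906 bp downstream of the 5′ end and was listed in replicate 2 at 25.3 and not in replicate 1. The region nearest the 5′ end, 9281921 to 9282344, lay 353 bp downstream with 27.6 in the pooled list and was listed in replicate 1 at 15.1 and not in replicate 2. With a window of 20.9 kb, 16.8% of the 641 genes with similar windows had a lower highest signal.

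NSY-7 is a transcriptional repressor known for the asymmetry of the AWC olfactory neurons. The nsy-7 gene (WBGene00044508, chromosome IV, 8083960 to 8086652, minus strand) had 2 pooled regions. The one at 8088435 to 8088858 lay 1995 bp upstream with 29.5 in the pooled list, rank 11159, and was listed in replicate 1 at 23.3 and not in replicate 2. The one at 8085199 to 8085622, nearer the 5′ end, lay in an intron 1241 bp downstream with 21.6, rank 23326, and was listed in replicate 2 at 14.8 and not in replicate 1. Replicate 2 listed 7 regions in the window, none above 15.1, and replicate 1 listed 1. One of the 7 lay 277 bp upstream of the 5′ end with 13.1 and had no pooled counterpart.

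**Figure D4:**
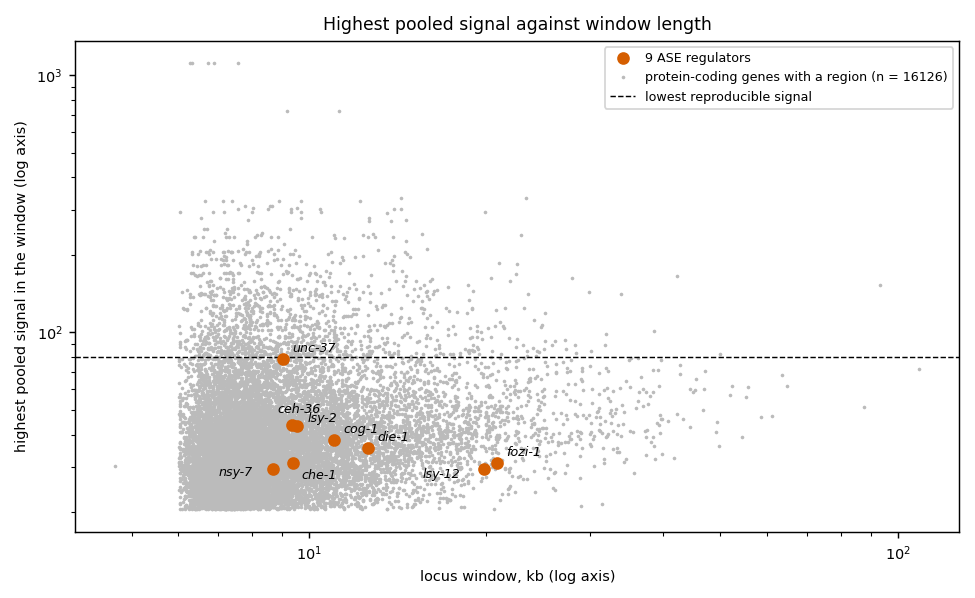
Highest pooled signal (vertical axis, log scale) against the length of the locus window (horizontal axis, kb, log scale) for the 9 members (orange, named) and all protein-coding genes with a region (grey, n = 16126), with the lowest reproducible signal, 80.0, as a dashed line. The unc-37 point lies in the upper part of the grey cloud and the other 8 members lie inside it.

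The sequence under the member summits was mostly unique in the genome, with all 31-base words occurring once in 33 of 35 windows. The exceptions were a weak che-1 region, with 97.7% of words unique, and an unc-37 region in the gene body of signal 25.1, with 48.5%. The median GC content of the member windows was 38.8%, against 41.3% over all pooled windows.

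The genes most like unc-37 in the highest promoter signal of the 3 lists, among 4730 genes with a value in each, were nurf-1, ile-2 and trap-2. For nurf-1 the pooled, replicate 1 and replicate 2 signals were 79.8, 35.6 and 46.0, beside 78.5, 35.8 and 45.8 for unc-37, a distance of 0.0265 over log2 values. The genes ile-2 and trap-2 share a single region with 79.9, 36.3 and 46.7, a distance of 0.0444.

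The other known genes of the ASE pathway were described in the same windows. Of 8 further regulators, 1 had a reproducible region, against 0 of 9 members and 6.38% of all genes. It was lim-6 itself, which encodes the protein that was tagged. Its highest region, in the 5′ UTR, had a pooled signal of 126.7, rank 165, with 67.9 in replicate 1 and 62.4 in replicate 2. Whether wgIs388, from which the tagged LIM-6 is made, adds to the signal at lim-6 was not tested. Next came lsy-13, which acts with LSY-12, with 75.7, rank 649, at 210 bp upstream. That summit also lay 179 bp upstream of the neighbour mel-46, in the promoter windows of both genes. Then came lsy-22, a Groucho-like partner of UNC-37, with 73.2, rank 721, in an intron. The lsy-13 region had 24.996 in replicate 1 and 55.5 in replicate 2, and the lsy-22 region had 48.6 in replicate 1 and 21.7 in replicate 2. At lsy-6, the microRNA gene of the left program, no region was listed in the pooled list or in replicate 1, and replicate 2 listed 1 at 15.1.

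Among 14 target and terminal genes of the ASE neurons, which include the receptor guanylyl cyclases of the gcy family, 0 had a reproducible region and 0 had one of the 5000 highest regions, against 6.38% and 34.0% of all genes. A promoter summit was present at 3 of 14, against 41.0% of all genes, and 3 of 14 had no pooled region, against 19.3%. The highest was at gcy-4, 37.5, rank 5399, and lay past its end in the promoter window of vha-9. The median of the highest signals over the targets with a region was 28.9, against 36.2 over the further regulators and 35.6 over the 9 members.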

How the data were processed

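The authors deposited lists of regions in the ce10 and ce11 builds. There was a relaxed list for each of the 2 libraries and for both pooled, and a list that passed their IDR threshold, labelled optimal. The pooled relaxed list is labelled as peaks and background, the input for IDR. By the layout of the files, each region has a signal value and a −log10 q-value deposited by the authors; which aligner and peak caller they used is not given in the sources used here. Depth is unknown, and no interval resting on it was made. Coordinates are those of ce11, 1-based, read with Ensembl release 115 gene models of WBcel235. Locus windows, promoter windows, ranks and overlaps were computed with Python 3.11.15, numpy 2.4.6, pandas 2.3.3 and scipy 1.17.1, and the window code was tested on simulated data. Ranks are by signal within a list. Sequence came from the RefSeq WBcel235 genome, and 5′ end windows were cut from it in place of a promoter table.

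The members, the lists of other ASE genes, the motifs and the alternatives were chosen with earlier results of these data known, so counts are descriptive and no test was made. All 9 members are named, with the highest region and the one nearest the 5′ end; of the other ASE genes lim-6, lsy-6 and the 3 of highest signal are named. For the member of highest promoter signal, the 3 nearest genes by Euclidean distance over log2 promoter signals are named. Alternatives were other window lengths, summit or edge overlap, each library alone, other promoter windows, stricter lists and other matching rules.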

Additional observations from a re-analysis of the deposited data

How the results depend on the processing

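The count of members with a reproducible region, 0, was the same with windows 2 kb or 10 kb upstream, with summits only and with the stronger part of the reproducible list. There was no IDR list for 1 library alone, so with 1 left out the 570 highest regions of the other were taken instead. They reached 0 members in replicate 1, against 6.34% of all genes, and 1, unc-37, in replicate 2, against 6.18%. At the ce10 signal limit, a setting that was chosen after seeing the data, the count was 1, against 9.04% of all genes. The median density, 0.239 regions per kb, was 0.305 with 2 kb upstream, 0.312 with 10 kb and 0.107 with the stronger part of the pooled list, against 0.235, 0.236 and 0.115 over all genes. It was 0.144 to 0.214 with 1 library left out, against 0.198 in replicate 1 and 0.260 in replicate 2 over all genes. Member regions among the 5000 highest numbered 4 of 35, 11.4% against 19.3% of all pooled regions, and 5 to 7 with 1 library left out, which was 28.0% against 22.8% in replicate 1 and 14.7% against 18.0% in replicate 2. They numbered 1 among the 2000 highest, 2.86% against 7.73%, and 13 among the 10000 highest, 37.1% against 38.6%. The median share of the list below the highest member region was 75.2%, against 64.2% over all genes. With 1 library left out it was 79 to 88.0, against 60.0 in replicate 1 and 66.8 in replicate 2. A gene with no region counts as 0 here, and 19.3% of all genes had no pooled region while every member had one. Among genes with a pooled region, the median highest signal was 35.5, against 35.6 over the members. The cause of the differences between settings and from all genes was not tested. The promoter count of 6 was 4 with the narrower window and 7 with the wider one, against 24.4% and 52.2% of all genes, 4 with the stronger part of the pooled list, against 25.1%, and 5 in each library alone, against 36.8% in replicate 1 and 42.0% in replicate 2. The share found in both libraries, 25.7%, was 17.1% with the stricter overlap rule and 14.3% with summits within 100 bp, against 37.2% and 25.9% of all pooled regions, and up to 29.8% with other windows. It could not be given with 1 library. No paired analysis was possible because there is 1 group.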
